A study of Caenorhabditis elegans with 2 samples.

Results

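The regions described here are the ELT-1 binding peaks that lay outside protein-coding genes and their promoter windows on the autosomes of Caenorhabditis elegans, here called distal intergenic. They were the thresholded peaks on the autosomes whose summit lay outside every protein-coding gene body and outside every promoter window, set from 1000 bp upstream to 200 bp downstream of a protein-coding transcript start. By this rule 461 of 1910 thresholded peaks (24.1%) were autosomal distal intergenic peaks. The rule used position only, not signal or sequence, and allows a summit close beyond the 3' end of a gene, as at 106 bp from tag-290. The peaks came from chromatin immunoprecipitation and sequencing (ChIP-seq) of ELT-1 fused to eGFP. Whole worms at the L3 larval stage, of mixed sex, made up a single group with replicates 1 and 2, and the labels name no other condition. The larvae were of strain OP354, which carries the unc-119(tm4063) mutation and the insertion wgIs354 with the tagged elt-1, so every value was measured with this added gene present. Whole animals mix all cell types, and the cells in which a region was bound cannot be told apart. The thresholded list was made by the authors with the irreproducible discovery rate (IDR), which keeps peaks whose ranks repeat between replicates. Nothing in the labels says how the replicate cultures were separated.

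ELT-1 is a GATA factor, a zinc finger protein that recognises DNA with the core GATA, and in the worm it specifies epidermal cells in the embryo and is needed to keep epidermal and seam cell identity later. Sequence far from a gene's start can hold enhancers, which act on a gene from a distance, and most worm genes are thought to be controlled mainly from sequence close to the start. A peak marks where the tagged protein was recovered with DNA and does not show that a neighbouring gene is regulated from there.

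The sequences at the summits of 8 strong peaks with a GATA site are shown first, because the results on sites turn on windows of this kind. Each runs from 50 bp left to 50 bp right of the summit, on the plus strand of ce11, named by the protein-coding genes on its left and right. Capitals mark every site of the type called WGATAR, searched on both strands. It has 4 forms, of which the 2 that begin with A are spelled AGATAA and, ending in G instead, AGATAG. The 2 that begin with T are spelled TGATAA and, ending in G instead, TGATAG. A site on the minus strand appears as its reverse complement, so that TTATCT stands for the first form and, with C in its first place, CTATCT for the second.
R02D5.24 and R02D5.1, chrV:14506864-14506964: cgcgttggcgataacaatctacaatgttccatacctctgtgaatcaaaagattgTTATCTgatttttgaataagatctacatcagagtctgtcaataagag
cyp-14A5 and rhr-1, chrV:5425187-5425287: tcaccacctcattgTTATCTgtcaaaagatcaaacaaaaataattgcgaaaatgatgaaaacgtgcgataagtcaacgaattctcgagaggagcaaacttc
C05B5.1 and C05B5.4, chrIII:9991486-9991586: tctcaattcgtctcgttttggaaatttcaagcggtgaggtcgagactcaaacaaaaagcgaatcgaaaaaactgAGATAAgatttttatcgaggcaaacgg
aat-1 and elt-1, chrIV:9608095-9608195: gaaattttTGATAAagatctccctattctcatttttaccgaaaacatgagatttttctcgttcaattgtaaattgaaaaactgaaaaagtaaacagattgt
tag-290 and nlp-24, chrV:11614944-11615044: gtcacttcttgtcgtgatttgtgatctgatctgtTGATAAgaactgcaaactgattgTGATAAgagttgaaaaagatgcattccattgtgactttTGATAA
acdh-6 and doxa-1, chrIII:8577723-8577823: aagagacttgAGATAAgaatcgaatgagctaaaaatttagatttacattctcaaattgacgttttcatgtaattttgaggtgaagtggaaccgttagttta
glr-4 and cki-1, chrII:7802036-7802136: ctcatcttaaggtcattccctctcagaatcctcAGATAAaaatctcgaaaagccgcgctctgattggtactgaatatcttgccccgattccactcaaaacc
snt-1 and egl-27, chrII:6822486-6822586: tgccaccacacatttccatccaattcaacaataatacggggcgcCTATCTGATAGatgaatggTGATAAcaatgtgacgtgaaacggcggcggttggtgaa
The peak between tag-290 and nlp-24 had 3 separate TGATAA sites, and the one between snt-1 and egl-27 had 3 sites of which a pair shared 1 base.

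The next 4 windows, from the same build and strand, are strong peaks with no WGATAR. The first is the strongest such peak, and the other 3 were chosen because they hold AAGATC, so they do not represent the 251 peaks without WGATAR, of which 43 hold it. Capitals mark AAGATC or its reverse complement GATCTT, a 6-base word that was more frequent at the peaks than at weaker peaks, as described further on.
F40H3.2 and F40H3.1, chrII:6176692-6176792: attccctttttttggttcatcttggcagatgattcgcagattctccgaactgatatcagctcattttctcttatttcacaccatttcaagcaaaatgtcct
cyp-14A5 and rhr-1, second peak, chrV:5426501-5426601: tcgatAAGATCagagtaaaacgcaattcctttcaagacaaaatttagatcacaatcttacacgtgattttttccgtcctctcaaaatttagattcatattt
C25F9.2 and srw-85, chrV:19429103-19429203: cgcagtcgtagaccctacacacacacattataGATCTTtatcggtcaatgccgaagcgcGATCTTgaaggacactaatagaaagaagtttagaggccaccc
C13G5.2 and ceh-16, chrIII:8621148-8621248: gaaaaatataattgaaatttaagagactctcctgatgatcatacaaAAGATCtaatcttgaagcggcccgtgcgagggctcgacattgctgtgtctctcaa
The first of these had neither WGATAR nor AAGATC in the window.

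The signal value of a peak is the authors' own, and is used here to rank and describe peaks, with each list on its own scale. Over the 461 peaks it ran from 27.7 to 472 with a median of 41.6, and 37 peaks were above 100. The strongest peak, between R02D5.24 and R02D5.1 on chromosome V, had a signal of 472 in the pooled list, 186 in the list of replicate 1 and 296 in that of replicate 2. It stood well above the other distal peaks in all 3 lists. Next came a peak 1955 bp from cyp-14A5, a cytochrome P450 gene, and 2923 bp from rhr-1, a gene of the Rh family, with signals of 294 pooled, 118 in replicate 1 and 180 in replicate 2. A second peak in that gap had 161, 70.1 and 89.4, in the same order. Both genes start at the gap, so the 2 peaks lay between divergent starts. The peak between F40H3.2 and F40H3.1 had 269, 95.6 and 175. The peak between C05B5.1 and C05B5.4 had 237, 123 and 121. Replicate 2 gave the higher number in most of these peaks, but each list has its own scale.

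Other peaks among the 20 strongest lay beside genes of known function. One lay 3691 bp from ccb-2, a calcium channel beta subunit, in the gap to pop-1, the TCF factor of Wnt signalling, with signals of 176 pooled, 65.5 in replicate 1 and 105 in replicate 2. Another lay 1382 bp upstream of nlp-24, a neuropeptide-like gene, with 163, 56.6 and 107. One more, 4049 bp from rei-1 and 13146 bp from the potassium channel gene unc-103, had 130, 58 and 72.1. The peak between cbl-1 and lin-41, a heterochronic gene, had 126, 48.8 and 82.5, and lay beyond the 3' ends of both genes. The peak between the nuclear hormone receptor genes nhr-31 and nhr-258 had 122, 28 and 89.3. This was the widest gap between replicates of these 5, though each list has its own scale. Peaks between sesn-1 and txt-7, with a pooled signal of 149, and between W06H8.6 and K08B12.3, with 139, also belonged here. All 20 of the strongest were among the 1910 strongest peaks of both replicates.

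**Figure D1:**
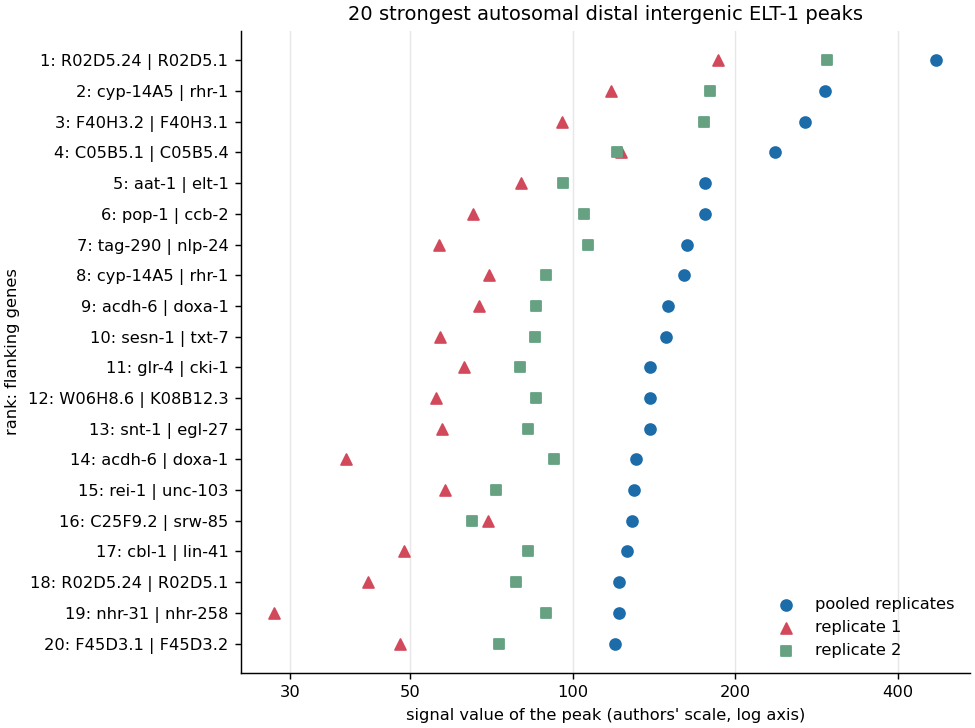
Signal values of the 20 strongest autosomal distal intergenic peaks in the pooled list (circles), the replicate 1 list (triangles) and the replicate 2 list (squares), on a log axis, with the flanking genes on the vertical axis. The first peak, between R02D5.24 and R02D5.1, leads every list, with 472, 186 and 296; each list has its own scale.

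A WGATAR site lay within 50 bp of the summit in 210 of the 461 peaks, 45.6% (40.9 to 50.2%, exact 95% interval). The comparison set was the 4977 remaining pooled peaks in autosomal distal intergenic sequence, weaker entries of the pooled list that can include background. Of these, 22.8% had a site (21.6 to 24%), and a 2-sided Fisher's exact test gave an odds ratio of 2.84 (p = 1.67e-24). The same summits were also compared with their surroundings, where windows centred 500 bp to the left had a site in 19.1% and those to the right in 23%. By exact McNemar tests both flanks had fewer, with 177 summits against 55 left flanks holding the only site of the pair (adjusted p = 7.81e-16) and 170 against 66 on the right (adjusted p = 9.31e-12). All 188613 windows of this length tiled over autosomal distal intergenic sequence gave 19.7%. The summit is the middle of the peak in 86.1% of the peaks, so it is an approximate position.

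The other classes of thresholded peaks were compared in the same way. Of 646 autosomal promoter peaks 31.7% had a site (28.2 to 35.5%), which was below the distal share (odds ratio 1.8, Fisher's exact test, adjusted p = 9.37e-06). With the strongest peaks of replicate 1 in place of the thresholded list, that is without replicate 2, this odds ratio was 1.29 (Fisher's exact test, adjusted p = 0.166), so the difference was not called. Promoter windows had a median GC content of 44.6% and distal windows 41.6%. No background share for promoter sequence is given here, and the part of base composition in the difference was not tested. Autosomal intronic peaks had a site in 40.5% of 284 (34.7 to 46.5%; odds ratio 1.23, Fisher's exact test, adjusted p = 0.294). Distal intergenic peaks on X had one in 47.1% of 155 (39 to 55.3%; odds ratio 0.94, Fisher's exact test, adjusted p = 0.78). Neither of the last 2 passed the test.

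**Figure D2:**
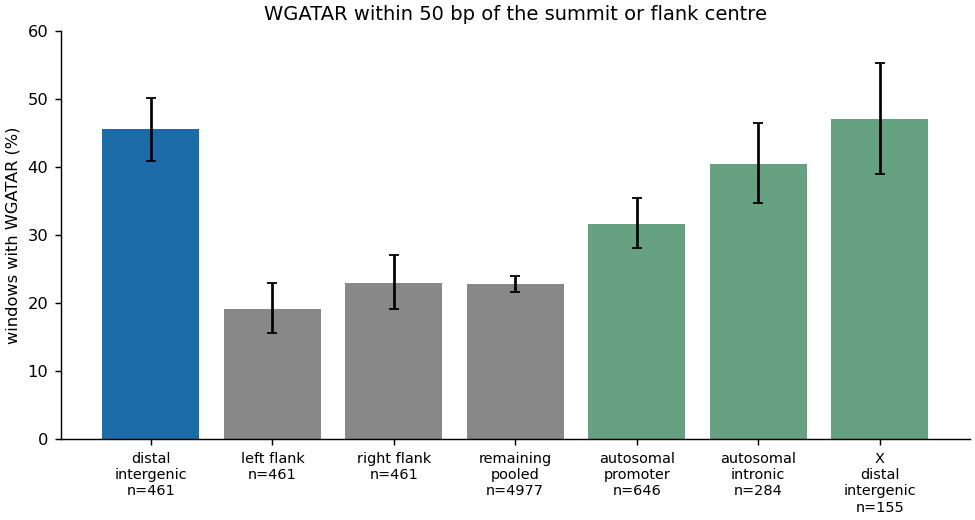
Share of windows with WGATAR within 50 bp of the summit, or of a point 500 bp to either side for the flanks, in percent, with exact 95% intervals as bars. The distal intergenic peaks (blue, 45.6%) sit above their flanks and the remaining pooled peaks (grey), above promoter peaks (31.7%), and within the intervals of intronic and X distal peaks (green).

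The 4 forms of the site did not contribute alike. AGATAA was present in 124 peaks, 26.9% against 8.62% of the weaker set of remaining pooled peaks (odds ratio 3.9, exact adjusted p = 1.59e-26 by Fisher's test). AGATAG was present in 10.8% against 3.96% (odds ratio 2.95, exact adjusted p = 5.43e-09). TGATAA was as frequent at the summits, in 10.8%, but was found in 8.82% of the remaining peaks (odds ratio 1.26, exact adjusted p = 0.197). TGATAG stood at 3.9% in both sets (odds ratio 1, exact adjusted p = 1). Across the tiled windows the shares were 6.15% for AGATAA, 2.81% for AGATAG, 8.98% for TGATAA and 3.61% for TGATAG.

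Position around the summit was counted for AGATAA and TGATAA, not for the forms ending in G, and gave the same order. Within 40 bp of the summits AGATAA occurred 3.23 times per kb, against 0.689 times per kb at 300 to 500 bp, a ratio of 4.69. The densities of TGATAA were 1.19 and 1.1 per kb, a ratio of 1.09. Closer in, TGATAA sites numbered 19 from -20 to 0 bp and 15 from 0 to 20 bp, but 8 and 2 in the next steps of 20 bp to the left and right. With windows of 25 bp either side its odds ratio against the remaining pooled peaks was 1.65 (Fisher's exact test, adjusted p = 0.0223), so TGATAA was called at that width and not at 50 bp. Around the remaining pooled summits the ratio was 1.46 for AGATAA, 0.884 for TGATAA and 2.66 for GAGAGA, which is described further on. Counted by direction, AGATAA sites pointed towards the nearest transcript start in 72 of 138 cases, 52.2%, which did not differ from equal shares by an exact binomial test (p = 0.671).

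**Figure D3:**
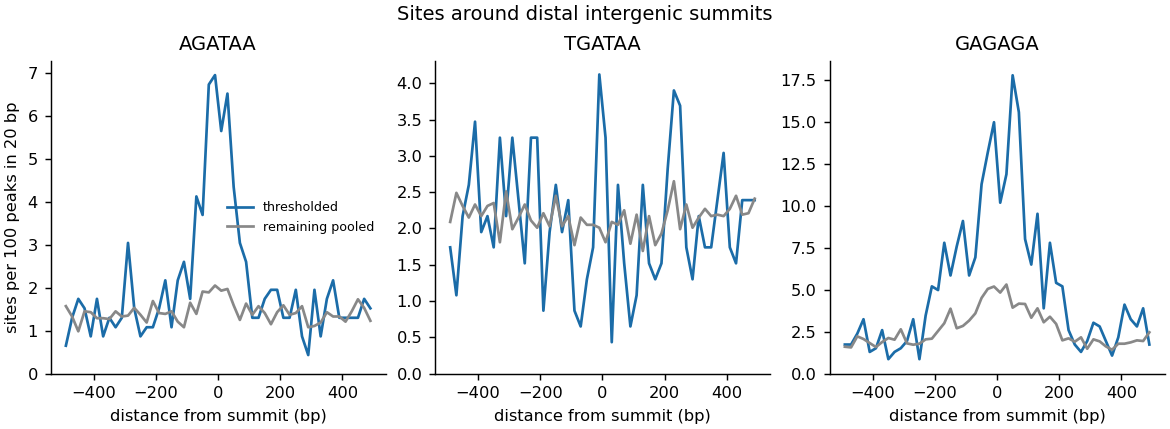
Sites per 100 peaks in steps of 20 bp against distance from the summit in bp, with AGATAA on the left, TGATAA in the middle and GAGAGA on the right, with thresholded autosomal distal peaks in blue and remaining pooled ones in grey. AGATAA piles up at the blue summits, with a density within 40 bp that is 4.69 times that at 300 to 500 bp (1.46 times at grey summits). GAGAGA has a ratio of 5.58 (2.66 at grey summits), but its rise is broad and not centred on the summit. Its highest step at blue summits, 17.8 per 100 peaks, is at 40 to 60 bp, against 10.2 at 0 to 20 bp. At 180 to 200 bp it is still 5.42. TGATAA has a ratio of 1.09 with a narrow rise within 20 bp. The vertical scales differ.

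Stronger peaks held a site more often. Of the peaks with signals from 57.1 to 472, 62.6% had WGATAR (53.1 to 71.5%) and 40.9% had AGATAA. From 41.7 to 56.7, from 32.8 to 41.6 and from 27.7 to 32.8, sets of nearly equal size, 46.1%, 36.5% and 37.1% had it. The stronger 230 peaks had a site in 54.3% and the weaker 231 in 36.8% (odds ratio 2.04, Fisher's exact test, p = 1.80e-04, a comparison added after the data were seen). A single site was found in 161 peaks, 2 sites in 42 and 3 sites in 7. Among peaks with the nearest protein-coding start under 2000 bp away 39.6% had a site (32 to 47.7%), from 2000 bp to under 4000 bp 43.4%, and at 4000 bp or more 57.5% (47.9 to 66.8%), a trend that was not tested. Median signals in these distance classes were 40.6, 40.7 and 44.8.

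Base composition also differed between the sets. The windows had a median GC content of 41.6%, against 34.7% in the remaining pooled peaks and 32.7% in both flanks. Of all 2080 distinct 6-base words, with reverse complements joined, AAAAAT differed most downward, in 23% of the peaks and 49.3% of the remaining ones. AGATAA differed most upward. Whether composition had a part in the word counts was not tested.

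GAGAGA, a GA repeat that ranked next but one among the words after AGATAA, was found in 123 peaks. This was 26.7%, against 11.3% in the weaker set (odds ratio 2.86, exact adjusted p = 4.72e-17 by Fisher's test) and 5.56% of the tiled windows. Left and right flanks had it in 6.72% and 6.29% (exact McNemar tests added after the data were seen, adjusted p = 1.96e-16 and 7.14e-17). Both WGATAR and GAGAGA were present in 36 peaks, GAGAGA only in 87, WGATAR only in 174 and neither in 164. Median signals of these sets were 42.7, 38.9, 47 and 38.6. Repeats of 5 or more GA units occurred in 23 peaks. Of the 25 words that differed most upward, 11 contained GAGA on 1 strand or the other.

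AAGATC was singled out after its rank among the words, eighth, was seen, so its share in these peaks is a description. It occurred in 71 peaks, 15.4%, against 4.08% of the remaining pooled peaks, 3.47% of left flanks, 3.04% of right flanks and 4.18% of the tiled windows. Of the 71, 28 also had WGATAR and 43 did not, and 253 peaks (54.9%) had either. Peaks of the other classes had not been used to choose it. There it was in 7.89% of promoter peaks against 4.79% of remaining pooled promoter peaks (odds ratio 1.71, Fisher's exact test, adjusted p = 0.00198). In intronic peaks it was in 10.2% against 3.47% (odds ratio 3.17, exact adjusted p = 2.10e-06), and in X distal peaks in 9.68% against 4.6% (odds ratio 2.22, adjusted p = 0.011). Among related words GATCTA was in 11.1% against 3.01%.

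For sequences known from other factors the calls depended on the setting. AGGTCA, a core recognised by many nuclear receptors, was in 5.86% of peaks against 3.28% (odds ratio 1.84, adjusted p = 0.0221, Fisher's exact test), a call that was lost with windows of 25 bp either side (adjusted p = 0.15), with a promoter window of 2000 bp (0.063), without replicate 1 (0.0716) and in the 955 strongest thresholded peaks (0.13). CACGTG, an E-box, was in 2.82% against 1.65% (exact adjusted p = 0.135). TGATNNAT, bound by Hox proteins with their cofactors, was in 10.6% against 7.78% (exact adjusted p = 0.0773). Here N is any base, so a match can contain TGATAA or TGATAG, which are forms of WGATAR. The counts and calls for TGATNNAT are therefore not separate from those of GATA sites, and the part of this overlap was not tested. TTTCACTT, a BLMP-1 type sequence, was in 2.82% against 1.95% (exact adjusted p = 0.267), and AACCGGTT, a Grainyhead type sequence, was in 1 peak, 0.217%, against 0.141% (adjusted p = 0.508). TGATNNAT was called with windows of 100 bp either side (exact adjusted p = 0.0215), without replicate 2 (0.0134), in the 955 strongest thresholded peaks (0.019) and against the tiled windows (0.0202). CACGTG was called without replicate 2 (odds ratio 2.21, exact adjusted p = 0.012) and against the tiled windows (0.0322), and TTTCACTT against the tiled windows (0.0202). The tiled windows held these in 2.67% (AGGTCA), 1.43% (CACGTG), 7.38% (TGATNNAT), 1.36% (TTTCACTT) and 0.0912% (AACCGGTT).

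The 461 peaks lay in 364 gaps between protein-coding genes. Of these gaps 64 held several peaks, together 161 peaks or 34.9%, and 51 peaks (11.1%) had another thresholded summit within 1000 bp. The fullest gap, 18574 bp between snt-1 and egl-27 on chromosome II, held 9. snt-1 encodes synaptotagmin, and egl-27 encodes a chromatin protein related to the MTA family. The strongest of the 9, shown above, lay 12472 bp upstream of the annotated egl-27 and had signals of 139 pooled, 57.3 in replicate 1 and 82.7 in replicate 2. A peak 13611 bp upstream had 111, 19.3 and 86.9, and the one nearest to egl-27, 1765 bp upstream, had 93.8, 35.3 and 62.6. The other 6 had pooled signals from 30.1 to 74.2. The 2 strongest of the 9 were nearer to the start of snt-1, at 11568 and 10429 bp. Of the 9 peaks 5 had WGATAR. In the list of replicate 1, 2 of the 9 had no matching entry within 100 bp, and in that of replicate 2 all 9 had one.

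The gap of 13299 bp between aat-1, an amino acid transporter gene, and elt-1 itself on chromosome IV held 6 distal peaks. The strongest lay 6850 bp upstream of elt-1 and nearer to the start of aat-1, at 6450 bp. It had 176 pooled, 80.2 in replicate 1 and 95.9 in replicate 2. Peaks 5702, 3859 and 1720 bp upstream had pooled signals of 112, 104 and 104, with 35.5, 48.7 and 37.5 in replicate 1 and 78.5, 54.3 and 69.6 in replicate 2. The remaining 2 had 73.1 and 42.8. A seventh peak in the gap, 719 bp upstream and so in the promoter window, had 375 and exceeded all 6. WGATAR was present in 3 of the 6. The strain carries an inserted elt-1, so sequence near elt-1 may be present in extra copies, and the part of this in the signals there was not tested. Without the 6 distal peaks within 20 kb of elt-1 or unc-119, the odds ratio for WGATAR was 2.83, and no call on WGATAR and its forms, chromosome position, neighbouring strands, masking or further copies changed.

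The gap between F45D3.1 and F45D3.2 on chromosome V, 12685 bp long, held 5 peaks, 4 of them with WGATAR. The strongest, 1393 bp upstream of F45D3.2, had signals of 120 pooled, 47.9 in replicate 1 and 73.2 in replicate 2. The other 4 ranged from 32.6 to 51.7. The gap between srh-16 and frm-7, also on chromosome V and 8287 bp long, held 5 peaks too, with pooled signals from 30.7 to 63.1 and WGATAR in 2 of them.

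**Figure D4:**
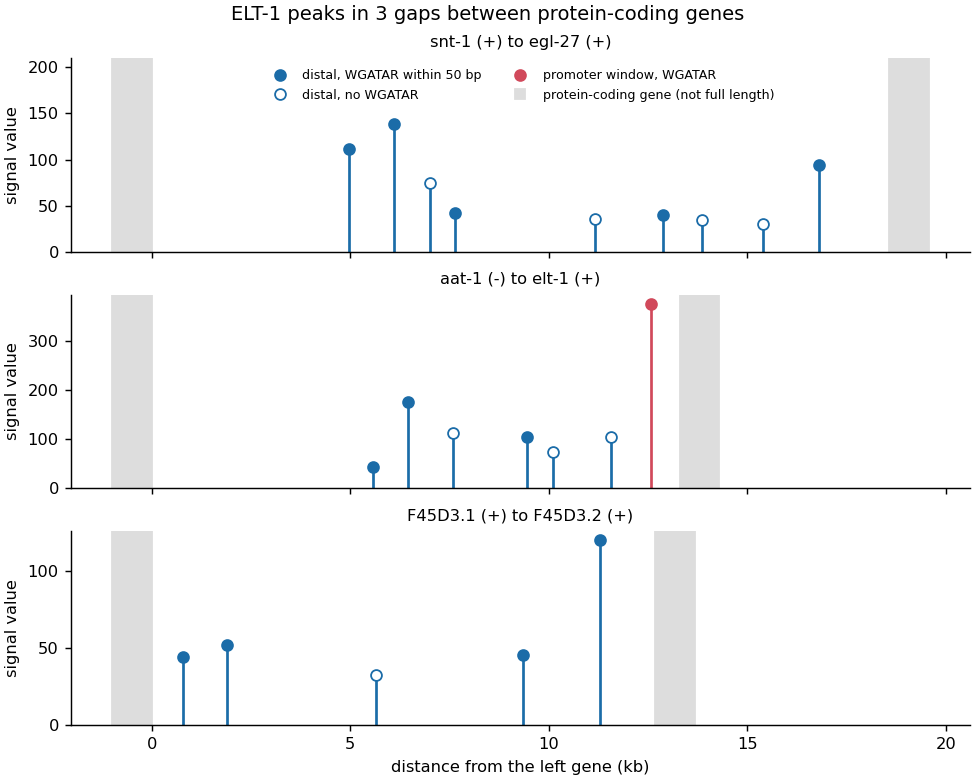
Pooled signal values of thresholded peaks against distance in kb from the left gene, in the 3 gaps with the most distal peaks, a tie at 5 peaks being settled by the higher summed signal; filled circles have WGATAR, open ones do not, blue are distal and red is a promoter window peak. The egl-27 gap has 9 distal peaks over its length, the elt-1 gap has 6 with the promoter peak of 375 nearest to elt-1, and the F45D3.2 gap has 5 with the strongest, 120, near that gene.

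Of the smaller groups, those beside doxa-1 and cki-1, genes with a known role in epidermis or growth, were chosen after values were seen. There were 2 gaps with 4 peaks and 12 with 3, so these do not represent the smaller groups. The gap between acdh-6 and doxa-1, which encodes a dual oxidase maturation factor used in cuticle crosslinking, held 4 peaks with pooled signals of 150, 131, 65 and 41.6, from 2525 to 6999 bp upstream of doxa-1. In replicate 1 these had 67.1, 38.1, 29.3 and 23.7, and in replicate 2 85.7, 92.4, 36 and 18.9. WGATAR was present in 3 of the 4. The gap between glr-4, a glutamate receptor subunit gene, and cki-1, a cyclin-dependent kinase inhibitor gene, held 3 peaks, each with WGATAR. They lay 9154, 7853 and 2848 bp upstream of cki-1 with pooled signals of 139, 45.3 and 81.7. In replicate 1 these had 63, 16 and 31.3, and in replicate 2 80, 31.8 and 49.9. The strongest of the 3 lay nearer to the start of glr-4, 7764 bp away. cki-1 was added to the gene lists after these values were seen.

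Genes of lists set by family or function were then counted when theirs was the protein-coding start nearest to a distal peak, which does not make them targets. Of 17242 autosomal protein-coding genes 408 (2.37%) were nearest to such a peak, and of the 9570 whose start was nearest to any distal intergenic base this was 4.26%. Among epidermal and seam regulators it was 3 of 16. They were ceh-16, the engrailed homologue of seam cells, elt-1, and blmp-1, a zinc finger regulator of larval timing. The ceh-16 peak, 1537 bp upstream, had signals of 118 pooled, 52.6 in replicate 1 and 65.8 in replicate 2. The blmp-1 peak, 3116 bp away, had 31.7, 11.7 and 18.9, near the low end of the list. Of 7 autosomal GATA factor genes elt-1 was nearest to a distal peak, and the closest such peak lay 131045 bp from elt-6, 135568 bp from egl-18, 76009 bp from elt-7, 70079 bp from end-1, 40512 bp from end-3 and 232275 bp from med-2. The GATA factor genes elt-2, elt-3, elt-4 and med-1 lie on X and were outside these regions.

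Nuclear hormone receptor genes, a family that is large in worms, made up 22 of the 408 genes, 8.94% of the 246 autosomal members and 13.4% of the 164 reachable ones. They were nearest to 30 peaks, where 8.77 would lie by their share of distal intergenic bases. The peak at nhr-31, a receptor gene, was described above. Those at nhr-138 and nhr-251 had pooled signals of 103 and 84.3, with 38.5 and 31.5 in replicate 1 and 62.1 and 47.5 in replicate 2. The gene nhr-46 had 4 peaks, of which the strongest had 85.6, 36.1 and 52.3 and lay 1013 bp from the start. Over the family, 13 of the 30 peaks had WGATAR. Neighbouring receptor genes share gaps, so these counts are not independent.

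The cuticle and signalling lists were shorter and gave fewer genes, with shares on either side of that of the nuclear hormone receptors. Of 146 autosomal cuticle collagens 8 (5.48%) were nearest to a distal peak, with 8 peaks in all where 3.22 would lie by bases. The peak at col-83, a collagen gene, had signals of 76.4 pooled, 34.2 in replicate 1 and 38.1 in replicate 2. Those at col-33, sqt-3 and col-105 had pooled signals of 52, 38.7 and 37.4. Patched-related receptors had 3 of 23 genes, with ptr-23 at 108, ptc-3 at 67.1 and ptr-11 at 38.5. Hedgehog-related ligands had 2 of 49, grl-8 with 63.2 and grd-10 with 32.2. The Wnt list had 2 of 18, the Frizzled receptor gene mig-1 with 42.8 and the Axin gene pry-1 with 31.4. Homeobox genes of the ceh family had 4 of 45: ceh-16, the Hox gene ceh-13 with 82.9, ceh-86 with 76.1 and ceh-43 with 58.9. That made ceh-13 the 1 gene of 8 in the Hox list, where 1.33 peaks would lie by bases. By the same measure 1.25 peaks would lie at the epidermal and seam list, where 6 were found. Of those 6, 4 were at elt-1, where the inserted elt-1 may add copies of sequence. For the Patched-related list 1.36 would lie by bases (4 found), and for the hedgehog-related list 0.78 (3 found). For the Wnt list it was 0.984 (2 found) and for the ceh list 2.13 (4 found). The peak between lin-39 and ceh-13 lay 4466 bp from ceh-13 and had 41.7 in replicate 1 and 39.9 in replicate 2.

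The heterochronic list had 1 of 5 genes, lin-41, whose start was the nearest to a peak with a pooled signal of 41.9, 1474 bp away. Peaks with 126 and 76.8, at 2133 and 210 bp beyond the 3' end of lin-41, were nearer to the start of cbl-1 and so were not counted for it. The molting list had 1 of 13, lrp-1, a megalin-like receptor gene, with 30.6 pooled, 2.17 in replicate 1 and 22.2 in replicate 2, so replicate 1 was low there. The cell cycle list had 1 of 14, cki-1, which was added after its peaks were seen, so this count is no result about the list. None of the 9 DBL-1 pathway genes, 10 apical matrix genes or 11 junction genes on the autosomes was nearest to a distal peak, where 0.424, 0.409 and 0.759 peaks would lie by bases. Among markers of other cell types, 1 of 10 neuron markers was (ric-4, a synaptic vesicle fusion gene, with 32), and none of 6 body wall muscle, 3 pharynx, 5 intestine and 8 germline markers. By bases 0.377 peaks would lie at the neuron markers, and 0.212, 0.234, 0.421 and 0.102 at the other 4 lists, so counts of 0 there are at the background. Chemoreceptor families had 6 of 1331 genes, 0.451%, nearest to 8 peaks where 32.3 would lie by bases. The strongest of these, at srw-85, had 129 pooled, 69.8 in replicate 1 and 65.2 in replicate 2. The others named by signal were srh-105 with 53.6, str-166 with 45.9 and srap-1 with 34.2, the last with no match in replicate 1. These lists are described by counts with no test.

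Distal intergenic peaks were denser in the central parts of the autosomes. The outer 25% at each end of the chromosomes held 153 peaks where 247 would lie by their share of distal intergenic bases, a ratio of 0.62 (exact binomial test, p = 1.94e-18). With the remaining pooled peaks as the background the ratio was 0.714 (Fisher's exact test, p = 2.93e-08). In these outer parts there were 26.6 peaks per Mb of distal intergenic sequence on chromosome I, 15.2 on II, 15 on III, 11.2 on IV and 11.5 on V. In the central parts the densities were 35.6, 43.1, 41, 29 and 27.7, so the central density was the higher on every autosome. In steps of 10% of chromosome length the density was highest from 50 to 60%, at 45.1 per Mb, and lowest from 80 to 90%, at 10.5 per Mb.

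Differences between whole chromosomes were smaller. Chromosome I had 87 peaks, 1.3 times the number by bases (adjusted p = 0.0249, exact binomial test), II had 103 and 1.21 times (adjusted p = 0.0445), and III had 78 and 1.17 times (adjusted p = 0.127). IV had 93 and 0.779 times (exact adjusted p = 0.0239), and V had 100 and 0.813 times (adjusted p = 0.0256). Without replicate 2, chromosome I was not called (1.13 times, exact adjusted p = 0.238) and III was (1.32 times, exact adjusted p = 0.0141). None of these calls remained against the remaining pooled peaks, where the adjusted p ranged from 0.101 to 1 for the 4 chromosomes called, so the differences depended on the background. Distal intergenic sequence as a whole was 23.5% of autosomal bases, and distal peaks were 32% of the 1440 autosomal thresholded peaks against 22% of the 22668 remaining pooled autosomal peaks. X had 27.1 distal peaks per Mb and the autosomes 23.8.

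The strands of the neighbouring genes went with the peaks as well. Gaps between divergent genes, in which both neighbours start, held 173 peaks, 37.5% against 28.8% of distal intergenic bases (ratio 1.3, adjusted p = 8.63e-05, exact binomial test). Gaps between convergent genes, which hold no start, had 40 peaks, 8.68% against 17.6% (ratio 0.493, exact adjusted p = 1.82e-07). Tandem gaps had 247, 53.6% against 53.4% (exact adjusted p = 0.963). Against the remaining pooled peaks the ratios were 1.16 for divergent and 0.688 for convergent gaps, both with an adjusted p of 0.0337. The median distance to the nearest protein-coding start was 2536 bp for the peaks and 2504 bp for the remaining pooled ones.

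**Figure D5:**
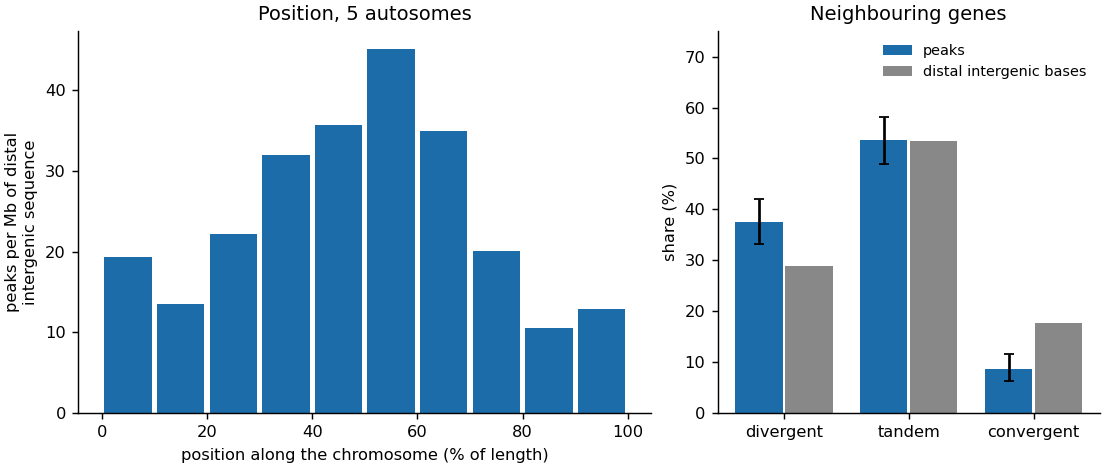
Left, distal intergenic peaks per Mb of distal intergenic sequence against position along the chromosome in percent of its length, summed over the autosomes; right, share in percent of peaks (blue, exact 95% intervals) and of distal intergenic bases (grey) in gaps between divergent, tandem and convergent genes. Density is highest from 50 to 60% of the length, at 45.1 per Mb, and convergent gaps hold 8.68% of peaks and 17.6% of bases.

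The rule left out protein-coding genes only, so some summits lay in other annotated genes. There were 44 such peaks, 9.54% against 9.66% in the weaker set of remaining pooled peaks (Fisher's exact test, odds ratio 0.986, p = 1). Most, 35, were in the broad annotation class ncRNA, 6 in lincRNA and 4 in snoRNA genes, 1 peak being in both of the first 2. Of the 4977 remaining pooled peaks, 160 were in ncRNA, 53 in lincRNA and 7 in snoRNA genes, so the ncRNA and snoRNA shares were higher at the thresholded peaks and the lincRNA share was close, differences that were not tested. No peak lay in a pseudogene, which with 461 peaks allows a share of up to 0.651%, counting error only, where 5.14% of the remaining pooled peaks and 12.2% of distal intergenic bases did. With the broad ncRNA class left out, 10 peaks were in a non-coding gene, an odds ratio of 0.307 (exact p = 2.26e-05). Of the 335 remaining pooled peaks counted there, 256 were in pseudogenes, so this ratio mostly repeats the pseudogene counts.

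Further copies and masked sequence were less frequent at these peaks than at the remaining pooled peaks. A further copy in the genome, of at least 90% identity over at least 80 bp of the window, was found for 3 peaks, 0.651% against 3.96% in the weaker set (Fisher's exact test, odds ratio 0.159, p = 4.20e-05). The summit base was masked as repeat or low complexity in the reference for 73 peaks, 15.8% against 35.1% (odds ratio 0.348, exact p = 9.90e-19, added after the data were seen). The authors' treatment of reads with several matches is not given in the sources used here, and its part in these shares was not tested.

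Most distal peaks were found in both replicates. Within 100 bp of the summit, 437 had a match in the list of replicate 1 and 450 in that of replicate 2, and 427 in both. Among the 1910 strongest of each replicate, 334 peaks (72.5%) had a match in replicate 1 and 373 (80.9%) in replicate 2, 265 (57.5%) in both and 19 in neither. The thresholded list was itself made from these lists, so the matches describe it. The share matched in both was 53.9% for promoter peaks, 56% for intronic peaks and 61.9% for X distal peaks, with no difference passing Fisher's exact test (adjusted p from 0.521 to 0.704). Over the 427 peaks in both lists the log2 signals had a Pearson correlation of 0.520 and a Spearman correlation of 0.439, a description over peaks that share their libraries. Of the 265 matched in both, 50.6% had WGATAR, and of the 19 matched in neither 31.6%.

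The median signal of the distal peaks was 41.6, with 39.7 for promoter, 42.1 for intronic and 40.7 for X distal peaks, and 52.3% of distal peaks were above the median of all nuclear thresholded peaks. None of the 3 comparisons of this share passed Fisher's exact test (adjusted p from 0.482 to 0.71). The largest promoter peak reached 1858, and the largest distal one 472. At the edge of the promoter window, the 3 distal peaks nearest to it lay 1001 bp from col-65, 1004 bp from bud-31 and 1013 bp from nhr-46 with signals of 37, 31.8 and 85.6. Just inside the window, peaks 989 bp from C32D5.8, 981 bp from ncx-4 and 981 bp from F47D12.3 had 39, 43.8 and 58.6.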

How the data were processed

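ELT-1 ChIP-seq peaks were analysed for 1 group with biological replicates 1 and 2. The members and gene lists were chosen with earlier results of these data known. The deposited files are peak lists on ce11 and ce10, and the ce11 lists were used. Per the authors' library file lists, peaks were called for each replicate and for the pooled replicates against a control, not analysed here, and the thresholded list of 1910 peaks was selected by IDR. For the aligner, the caller and the IDR cut-off, the names and settings were not given in the sources used here. Signal values in the deposited lists are the authors' own. The deposited −log10 q values share one top value over the thresholded peaks and were not used for ranking. The deposited summit offset gave the summit. Read depth is unknown, so intervals cover the counting of peaks only, treat peaks as independent, which neighbours are not, and p-values measure the spread over peaks, not over animals.

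Genes came from Ensembl release 115 on WBcel235 (19985 protein-coding genes) and sequence from the RefSeq copy of that assembly. All listed gene symbols but ifa-2 matched. The remaining pooled peaks had a summit over 500 bp from every thresholded summit. Expected numbers by bases used the distal intergenic bases of each class. WGATAR and the other sequences were searched on both strands in windows of 50 bp either side of the summit. Piwi RNA genes were left out of the non-coding genes. Tests were 2-sided Fisher's exact, exact McNemar or exact binomial tests with Benjamini-Hochberg adjustment within each family and a threshold of 0.05, and intervals are exact 95% Clopper-Pearson intervals. A floor for a count of 0 is 3 counts. Python 3.11.15, scipy 1.17.1, pandas 2.3.3 and BLAST 2.17.0 were used, and the code was tested on simulated data.

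Named peaks and genes were the 20 strongest peaks, up to 4 genes per list by signal, all listed GATA factor genes, the 3 gaps with the most peaks (ties broken by summed signal) and the peaks at the window's edge. The doxa-1, cki-1 and AAGATC results were chosen after values were seen. Alternatives were other windows, flanks, promoter lengths and backgrounds, the 955 strongest thresholded peaks, peaks matched in both replicates, peaks outside all genes, and the 1910 strongest peaks of a single replicate in place of the thresholded list.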

Additional observations from a re-analysis of the deposited data

How the results depend on the processing

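Values are odds ratios, or ratios of observed to expected numbers for positions. The excess of WGATAR and GAGAGA over the remaining pooled peaks and the flanks, that of AGATAA over the remaining pooled peaks, the outer 25%, divergent and convergent ratios, and the masked and repeated shares kept their direction and call under every alternative run. No paired analysis was possible because there is 1 group and no contrast. Positions compared with remaining peaks rather than bases, and results without peaks near elt-1 or unc-119, were chosen after seeing the data. The causes of the changes below were not tested.

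With 25 bp either side the WGATAR ratio to intronic peaks was 0.999, TGATAA was 1.65 (exact adjusted p = 0.0223) and AGATAA direction 0.969. With 100 bp TGATAA was 0.857. With a promoter window of 2000 bp, the intronic ratio was 1.54 (exact adjusted p = 0.0284), the X distal ratio 1.01, TGATAG 0.796, chromosome I 1.22 (exact adjusted p = 0.112) and non-coding genes 1.07. Using 1 replicate at a time, the WGATAR ratio to promoter peaks ran from 1.29 (not called) to 1.41, TGATAA from 0.942 to 1.06, AACCGGTT from 0 to 0.962, the X match ratio from 0.824 to 1.12, chromosome I from 1.13 to 1.25 (not called without replicate 2, exact adjusted p = 0.238), III from 1.21 to 1.32 (called without replicate 2, exact adjusted p = 0.0141), tandem gaps from 0.985 to 1.02 and AGATAA direction from 0.991 to 1.07. In the 955 strongest thresholded peaks, AACCGGTT was 0, the intronic match ratio 0.984, tandem gaps 0.924, and chromosomes I, II, IV and V 1.05, 1.15, 0.822 and 0.972, none called. With peaks matched in both replicates these 4 were 1.25, 1.27, 0.758 and 0.876, none called, and tandem gaps 0.932. Outside all annotated genes II was 1.22 and V 0.826, neither called. Without the broad ncRNA class, but with pseudogenes still included, the non-coding ratio was 0.307. Against the 2489 stronger remaining peaks, with every class included, it was 1.13. Against the remaining pooled peaks, chromosomes I to V were 1.1, 1.22, 0.926, 0.824 and 0.995, and tandem gaps 0.973. With depth unknown and 2 replicates, peaks below the threshold cannot be called unbound.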
